A study of Homo sapiens with 6 samples.

Results

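The 7 genes described here encode the machinery that turns plasminogen into plasmin on cells and 2 of the inhibitors that restrain it. They are the activators PLAU and PLAT, the inhibitors SERPINE2 and SERPINB2, the urokinase receptor PLAUR, and ANXA2 and S100A10, which together form a docking site for plasminogen. They were chosen by name from the platform's gene symbols, and where a gene had several probes the brightest on average over the 6 arrays stood for it. All 7 were measured, out of 18365 genes on the array, and all 7 lay above the median of all probes.

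The values come from LX2 cells, an immortalised human hepatic stellate cell line, on one-channel Phalanx arrays. Stellate cells are the liver cells that lay down scar matrix. In one group of 3 samples the cells had been treated with Syy, a code-named small molecule said by the submitters to inhibit stellate cell secretion, and 3 samples were controls of the same line. The dose, the duration and what the controls received are not stated in the sources used here. Nothing in the labels says that each sample was a culture of its own, and the p-values therefore cover the spread among these 6 samples, which may be technical. The array measured RNA of whole cultures, in which more cells with a transcript and more transcript per cell cannot be told apart.

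Plasmin is a broad protease that dissolves fibrin, cleaves matrix glycoproteins and activates some latent growth factors and metalloproteinases. It is made from plasminogen, a liver protein, by urokinase (from PLAU), which works mostly at cell surfaces through its receptor, and by tissue plasminogen activator (from PLAT), best known for fibrin-bound clot lysis. Serpins are suicide inhibitors that trap such proteases. In liver fibrosis this system is known as a brake on matrix accumulation, and stellate cells are known to express several of its components.

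Values below are log2(intensity + 16), quantile normalized over the 6 arrays, so that an intensity of 0 reads 4, and differences are Syy minus control. A gene was called when its adjusted p (limma, Benjamini-Hochberg over all 18365 genes) was under 0.05. By this rule 2017 genes were higher with Syy and 2104 lower, so that 48.9% of the calls were higher. That share was 81.0% in the values as deposited and 60.0% after median centring. The calls numbered 4121, against 2684 without Syy replicate 2 and 2350, 2328 and 2459 without control replicates 1, 2 and 3. Pairs of Syy arrays had Spearman correlations of 0.973 to 0.977 over the probes, and pairs of control arrays 0.984 to 0.985. The label of the cells was checked against stellate markers. COL1A1, ACTA2 and VIM read 10.96, 11.95 and 14.85 on average in the controls, and PDGFRB, TIMP1 and LOX 9.32, 13.06 and 8.20. COL3A1 was lower at 5.99, and COL1A2, at 4.88, had a mean below the median of all probes. DES, a stellate marker best known from rodents, and LRAT, of the quiescent state, read 4.42 and 4.12, near the level of no signal. Of these 10 markers 5 were called higher with Syy and 0 lower, against 22.4% of all genes called.

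Syy replicate 3 stood apart. Its deposited intensity summed over 17 hepatocyte markers was 24555, where Syy replicates 1 and 2 had 481 and 766 and the controls 568 to 859. The sum was carried mostly by APOA2, the brightest of the 17 on that array at 14.09, followed by APOA1 at 11.72. ALB read 6.88 there. CYP3A4 and TAT, at 4.47 and 4.33, stayed near the level of no signal. CYP2E1, at 5.57, lay within the range of the other arrays. On that array 10 of the 17 markers lay more than 1 log2 unit above all other arrays, as did 117 of all 18365 genes, against 1 to 17 genes on each other array. None of the 7 genes did so on any array.

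Both activators rose with Syy, and the 5 inhibitor, receptor and docking genes were not called. PLAU was 1.60-fold higher and PLAT 1.57-fold higher. The share of 2 called among 7 lies near the 22.4% called among all genes in either direction, so the count itself does not set these genes apart. In a fit limited to genes above the median of all probes, as all 7 are, 37.8% were called. PLAU and PLAT were the members called there too. In 3 of the 7 the Syy and control values did not overlap, against 38.3% of all genes.

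**Figure D1:**
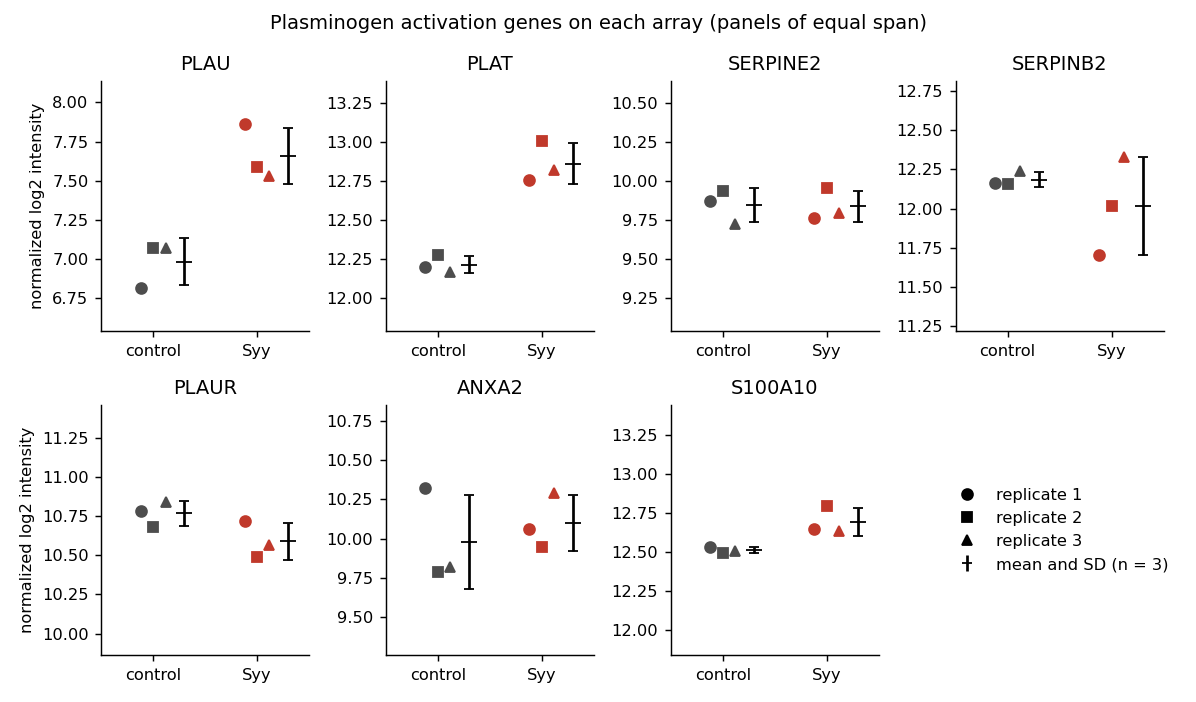
Normalized log2 intensity of each gene on each array, with controls in grey and Syy in red. Symbols mark the replicate and bars the mean and SD of 3 arrays, and every panel spans the same number of log2 units. PLAU, PLAT and S100A10 are the genes whose groups do not overlap, and the SERPINB2 values spread widely with Syy.

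PLAU read 6.81, 7.07 and 7.07 in the controls and 7.86, 7.58 and 7.53 with Syy. Every Syy array lay above every control array, with replicate 1 of Syy the highest. The mean rose from 6.98 ± 0.15 to 7.66 ± 0.18 (SD, n = 3 each), a difference of 0.68 ± 0.12 (SE) with an adjusted p of 0.0137 (limma). In deposited intensity the probe averaged 101 ± 6.16 in controls and 208 ± 23.1 with Syy, a ratio of 2.07. The difference was 0.94 on the log2 scale in the values as deposited and 0.81 after median centring. PLAU was a probe of moderate brightness, at the 65.6th percentile of gene means, where the added 16 units weigh on the fold. The call held when any single array was left out (adjusted p from 0.0249 to 0.0446). Without both Syy replicate 3 and control replicate 2, a pair that earlier results of these data had set apart, the difference was 0.78 and the call was lost (adjusted p = 0.0829).

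PLAT, the gene of tissue plasminogen activator, read 12.20, 12.27 and 12.17 in the controls and 12.75, 13.01 and 12.82 with Syy. The groups were separated by more than the whole range of either. The mean went from 12.21 ± 0.05 to 12.86 ± 0.13 (SD, n = 3 each), a rise of 0.65 ± 0.08 (SE) with an adjusted p of 0.00525 (limma). PLAT was among the brighter genes of the array, at the 96.0th percentile, with deposited intensities of 4605 ± 287 and 7553 ± 834. It stayed called without any single array (adjusted p from 0.0135 to 0.0285), and was not called without Syy replicate 3 and control replicate 2 (0.70, adjusted p = 0.0621). PLAU and PLAT each had 1 probe, so neither change was seen by a second probe.

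The promoters of PLAU are shown because it is the called gene for which RefSeq windows were used (GRCh38.p14), and those of PLAUR and SERPINB2 as genes of the same system that were not called. Of the 7 genes, 6 had windows. Each sequence holds the 250 bases before a transcription start, 5′ to 3′ on the gene's strand, and PLAU has 2 starts in the table. The first PLAU window is chr10:73910360-73910609 (+ strand), the second chr10:73910882-73911131 (+ strand), that of PLAUR chr19:43670170-43670419 (- strand) and that of SERPINB2 chr18:63887455-63887704 (+ strand). Capitals mark matches on either strand to TGANTCA, the motif of the transcription factor AP-1, to GGGCGG, the GC box bound by SP1, and to TATAAA, the TATA box. No marked matches overlap.
PLAU first start: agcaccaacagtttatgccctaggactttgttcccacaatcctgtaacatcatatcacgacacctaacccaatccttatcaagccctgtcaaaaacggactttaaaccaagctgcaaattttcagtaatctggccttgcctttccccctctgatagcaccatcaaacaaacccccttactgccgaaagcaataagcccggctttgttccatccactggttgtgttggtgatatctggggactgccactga
PLAU second start: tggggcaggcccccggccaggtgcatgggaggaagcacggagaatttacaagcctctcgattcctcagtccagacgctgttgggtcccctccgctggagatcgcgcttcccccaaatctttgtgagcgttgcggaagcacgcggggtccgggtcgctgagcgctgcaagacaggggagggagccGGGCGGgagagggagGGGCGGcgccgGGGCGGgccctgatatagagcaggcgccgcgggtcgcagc
PLAUR: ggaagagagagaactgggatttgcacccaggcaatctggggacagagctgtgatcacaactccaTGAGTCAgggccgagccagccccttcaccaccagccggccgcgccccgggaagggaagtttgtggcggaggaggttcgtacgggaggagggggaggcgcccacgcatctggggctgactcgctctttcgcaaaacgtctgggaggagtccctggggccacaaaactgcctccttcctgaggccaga
SERPINB2: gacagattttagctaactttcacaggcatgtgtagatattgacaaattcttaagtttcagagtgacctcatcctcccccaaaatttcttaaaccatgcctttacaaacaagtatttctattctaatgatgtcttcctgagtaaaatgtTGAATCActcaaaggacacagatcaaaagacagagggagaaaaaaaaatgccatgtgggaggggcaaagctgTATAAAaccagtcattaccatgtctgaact

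The second PLAU window held 3 GC boxes, beginning 66, 51 and 40 bases before the start, and the first held none of the motifs searched. PLAUR and SERPINB2 had 1 AP-1 match each, 186 and 102 bases before the start, and SERPINB2 also had a TATA box at 30. Genes that were not called and are not shown also held such matches. ANXA2 had 1 AP-1 match, 3 GC boxes and 1 TATA box, S100A10 had 1 GC box, and the SERPINE2 windows had 1 and 2 GC boxes. Over all 35116 windows of this length, 6.57% held the AP-1 motif, 42.6% a GC box and 10.7% a TATA box. CAGACA, a SMAD motif, was present in 13.6% and was found in the windows of SERPINB2 and S100A10. GGAATG, the TEAD motif, was present in 11.9% and in none of the 8 windows of the 6 genes. A match is a description of these letters and does not show that a factor binds there.

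SERPINE2, which encodes protease nexin 1, an inhibitor of thrombin, urokinase and tissue plasminogen activator, read 9.87, 9.94 and 9.73 in the controls and 9.76, 9.95 and 9.79 with Syy. The groups overlapped throughout. The difference was -0.01 ± 0.08 (SE), with a 95% confidence interval from -0.21 to 0.20 and an adjusted p of 0.976 (limma). Its sign turned with the scaling, to 0.25 as deposited and 0.12 after median centring, without a call in either. Its second probe carried next to no signal, with deposited intensities averaging 2.07 in controls and 1.98 with Syy, and so says nothing on the gene.

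SERPINB2, which encodes plasminogen activator inhibitor 2, a serpin that is largely kept inside cells and targets urokinase, differed more between Syy arrays than between groups. It read 12.16, 12.15 and 12.24 in the controls and 11.70, 12.02 and 12.33 with Syy. The controls lay within a narrow band, with Syy replicates 1 and 2 below it and replicate 3 above it. The SD was 0.31 with Syy and 0.05 in controls, and the difference of -0.17 ± 0.16 (SE) was not called (adjusted p = 0.510, limma). The second probe read 12.26, 12.18 and 12.33 in the controls and 11.69, 11.90 and 12.14 with Syy. Among the Syy arrays replicate 1 was lowest on both probes and replicate 3, the array with the high hepatocyte markers, was highest. The part of that array in the result was not tested. On the first probe the difference was -0.33 without replicate 3 of Syy and -0.01 without replicate 1, called in neither. On the second probe every Syy value lay below every control value, with a difference of -0.35 ± 0.12 (SE) and an adjusted p of 0.116 (limma over all probes, in which 17.8% of 31741 probes were called).

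PLAUR, the receptor that holds urokinase at the cell surface, was measured by 2 probes of similar brightness. The probe with the higher mean read 10.78, 10.68 and 10.84 in the controls and 10.72, 10.49 and 10.56 with Syy. The difference was -0.18 ± 0.08 (SE) with an adjusted p of 0.176 (limma), and 0.02 in the values as deposited. The other probe read 0.05 ± 0.10 (SE), and the groups overlapped on both. PLAUR thus had no called change on either probe.

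**Figure D2:**
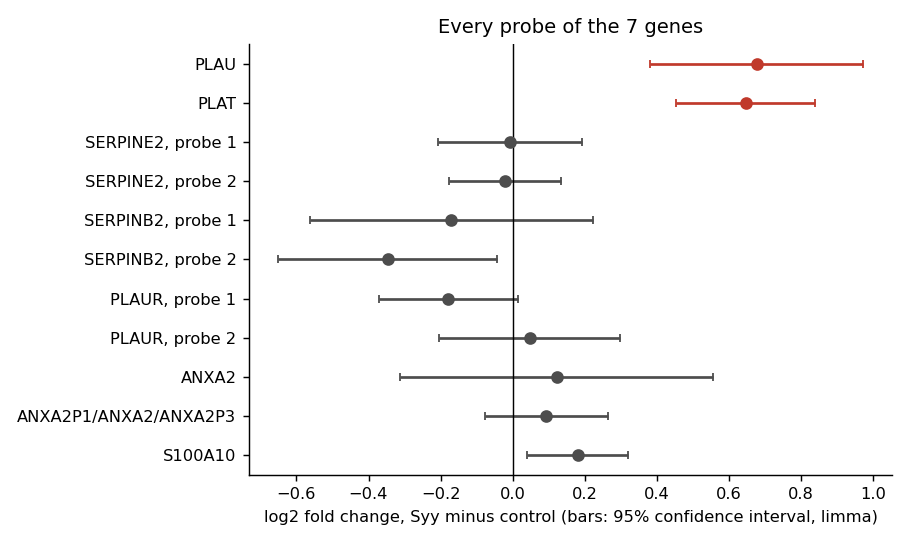
Difference between Syy and control for every probe of the 7 genes, on the log2 scale, with 95% confidence intervals from limma over all probes. Probes called at an adjusted p under 0.05 are red. The intervals of PLAU and PLAT lie above 0.38, and those of the SERPINE2, PLAUR and ANXA2 probes cross 0.

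ANXA2, which encodes annexin A2, a calcium-dependent membrane-binding protein that gathers plasminogen and tissue plasminogen activator, read 10.33, 9.79 and 9.82 in the controls and 10.06, 9.94 and 10.29 with Syy. Control replicate 1 was the highest of the 6 arrays. The difference of 0.12 ± 0.17 (SE) was not called (adjusted p = 0.684, limma), with an interval from -0.31 to 0.55. It read -0.07 without Syy replicate 3 and control replicate 2. A further probe is annotated to ANXA2 together with its pseudogenes ANXA2P1 and ANXA2P3, near-identical copies, so its value cannot be assigned to ANXA2 alone. The first probe is annotated to ANXA2 only, but whether it also detects the pseudogenes was not checked. The further probe was far brighter, at 14.16, 14.14 and 14.02 in controls and 14.14, 14.31 and 14.15 with Syy. Its difference was 0.09 ± 0.07 (SE).

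S100A10, which encodes p11, the light chain of the annexin A2 complex whose end lysine binds plasminogen, read 12.53, 12.49 and 12.51 in the controls and 12.65, 12.79 and 12.63 with Syy. All Syy values lay above all control values, and the control SD was 0.02. The difference of 0.18 ± 0.06 (SE) was small and not called (adjusted p = 0.0840, limma), and it was not called under any of the 15 alternatives tried (0.12 to 0.24, adjusted p from 0.0623 to 0.380).

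A scale factor of an array cancels largely, but not fully, from a difference between 2 of its probes, since the added 16 units weigh more on a dim probe such as that of PLAU. For 6 pairs, chosen after the values were seen, log2(intensity + 16) of the deposited values was subtracted within each array. PLAU minus PLAUR was -3.90, -3.66 and -3.87 in the controls and -2.89, -2.84 and -2.94 with Syy, a shift of 0.92. PLAU shifted by 0.69 against SERPINE2 and by 1.01 against SERPINB2, and PLAT by 0.46 and 0.78 against the same genes. In all 5 of these pairs each Syy array lay above each control array. S100A10 minus ANXA2 shifted by -0.12, with overlapping groups. An exact two-sided permutation test gave p = 0.1 for each of the 5 pairs, the smallest that 3 against 3 arrays allow, and 0.12 after adjustment over the 6 pairs, so none could pass 0.05.

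**Figure D3:**
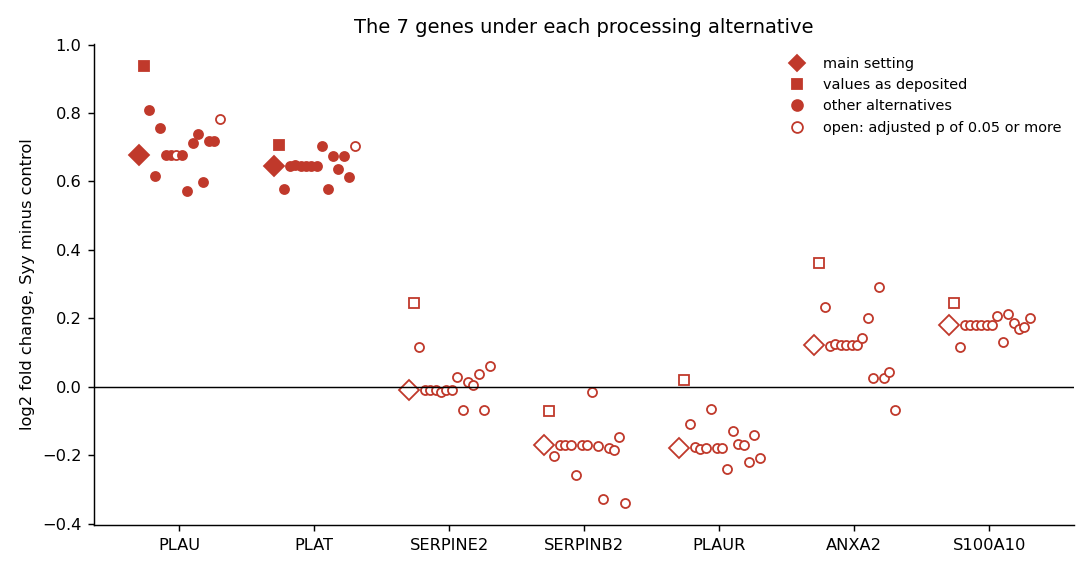
Difference between Syy and control for each of the 7 genes under the main setting (diamonds), the values as deposited (squares) and the other alternatives (circles), on the log2 scale. Filled symbols were called at an adjusted p under 0.05. PLAU and PLAT stay between 0.57 and 0.94, and no symbol of the other genes is filled.

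Of 20 other genes of the plasminogen system listed, 19 were measured. With Syy 3 were higher, 1 was lower and 15 were not called, against 22.4% called among all genes, and the median difference was 0.12, where that of all genes was near 0. The number called was 2, both higher, without Syy replicate 2 or any 1 control. The share of all genes called was then 14.6% without Syy replicate 2 and 12.7% to 13.4% without 1 control. With the mean over the probes of a gene the list had 6 calls, 3 higher and 3 lower, against 21.9% of all genes. The genes that rose encode endocytic receptors. IGF2R, the mannose 6-phosphate receptor, which binds plasminogen and the urokinase receptor besides lysosomal enzymes, read 6.44, 6.41 and 6.37 in the controls and 7.13, 7.31 and 7.16 with Syy. It rose by 0.79 ± 0.06 (SE, adjusted p = 0.00237, limma) and was called under all 15 alternatives. LRP1, the scavenger receptor that clears complexes of activators with serpins, read 6.58, 6.65 and 6.73 in the controls and 7.11, 7.34 and 7.28 with Syy, a rise of 0.59 ± 0.08 (SE, adjusted p = 0.00659, limma). That call was lost only without Syy replicate 3 and control replicate 2 (adjusted p = 0.0856).

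MRC2, also called the urokinase receptor-associated protein, which takes up collagen fragments, rose by 0.51 ± 0.12 (SE, adjusted p = 0.0348, limma), and its dim second probe read 0.65. The call was lost when Syy replicate 1, Syy replicate 2 or any 1 control was left out (adjusted p from 0.0854 to 0.112), with differences of 0.43 to 0.52. PLGRKT, a membrane receptor for plasminogen, read 6.73, 6.79 and 6.78 in the controls and 6.50, 6.47 and 6.63 with Syy. Its fall of 0.23 on the log2 scale (SE 0.06, adjusted p = 0.0423, limma) was a narrow call that was kept under 3 of 15 alternatives, and the value as deposited was 0.06.

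PLG, the plasminogen gene itself, read 4.37 in both groups, near the level of no signal. SERPINF2, the gene of the plasmin inhibitor antiplasmin, read 4.53 in controls and 4.58 with Syy, and CPB2, a carboxypeptidase that slows clot lysis, 4.18 and 4.17. All of them are made mainly by hepatocytes. On Syy replicate 3 PLG read 4.33 and CPB2 4.18, within the range of the other arrays, and SERPINF2 4.91, above the 4.33 to 4.57 of the others. ENO1, the glycolytic enzyme enolase, which can also bind plasminogen at the cell surface, was near the top of the scale, at 15.98 in controls, and was not called (0.02, adjusted p = 0.779, limma). TFPI2, a Kunitz inhibitor of plasmin made by stromal cells, read 11.53 in controls and 11.32 in Syy samples, a difference that did not pass (adjusted p = 0.242, limma). A second, dimmer TFPI2 probe read 7.47 in controls and 6.42 in Syy samples. Its difference was -1.06, with groups that did not overlap (adjusted p = 0.00529, limma over all probes). Both TFPI2 probes thus read lower with Syy, and only the dimmer one was called.

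SERPINI1, the gene of neuroserpin, an inhibitor of tissue plasminogen activator, gave 2 answers. Its brighter probe read 6.69 in controls and 6.68 with Syy (-0.01, adjusted p = 0.971, limma). Its other probe, also above the median, read 6.39, 5.83 and 6.35 in the controls and 5.45, 5.54 and 5.11 with Syy, a difference of -0.82 ± 0.19 (SE) that was called (adjusted p = 0.0380, limma over all probes). SERPINA5, the protein C inhibitor, which also inhibits urokinase, read 8.56 on Syy replicate 3 and 4.57 to 5.04 on the other 5 arrays. It was not called (1.48 ± 1.01 SE).

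**Figure D4:**
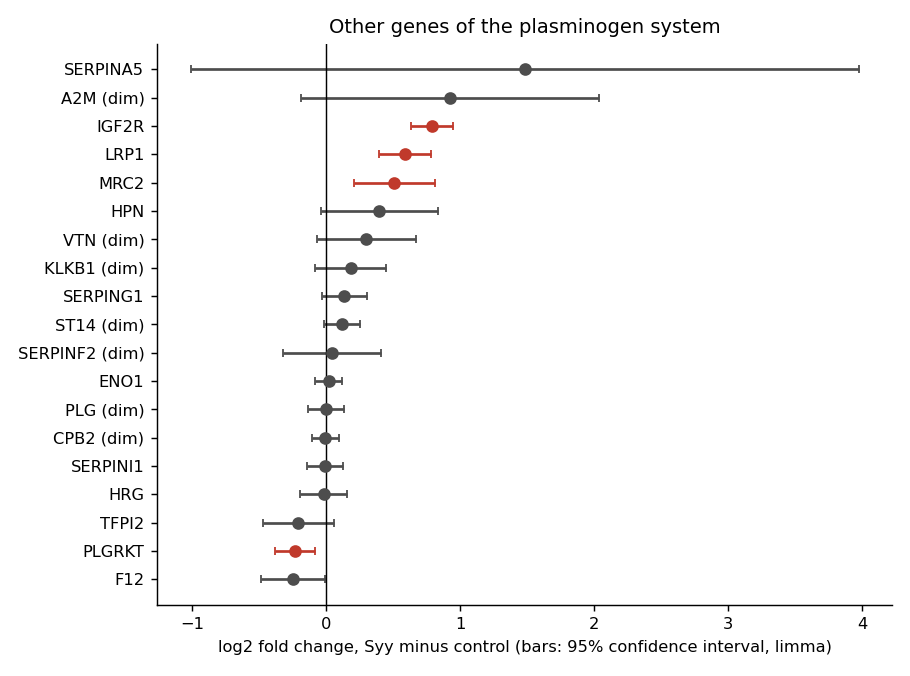
Difference between Syy and control for the 19 measured genes of the plasminogen system outside the 7, on the log2 scale, with 95% confidence intervals from limma over all genes. Called genes are red, and genes whose mean lies at or below the median of all probes are marked dim. IGF2R, LRP1 and MRC2 lie to the right, PLGRKT to the left, and the interval of SERPINA5 is wide.

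Among 16 relatives of SERPINE2 and SERPINB2 outside the plasminogen system, 5 rose, none fell and 11 were not called (22.4% of all genes called), with a median of 0.23. Without Syy replicate 3, the array with the high hepatocyte markers, 3 were higher and 2 lower and the median was 0.05. The lower ones were SERPIND1 (-0.71) and SERPINF1 (-0.50). Leaving out Syy replicate 2 left 2 called, leaving out control replicate 1 or 2 left 1, and control replicate 3 left 3. None was called without both Syy replicate 3 and control replicate 2. Over all genes the share called was 20.4% without Syy replicate 3 and 14.6% without Syy replicate 2. It was 12.7% to 13.4% without 1 control and 6.01% without both arrays. SERPINB1, an inhibitor of neutrophil proteases, rose by 0.56 ± 0.11 (SE), and SERPINB9, the granzyme B inhibitor, and SERPINB6, an inhibitor of trypsin-like proteases, rose by 0.34 each (adjusted p = 0.0199, 0.0211 and 0.0467, limma). Of these clade B calls, SERPINB1 was lost without Syy replicate 2, control replicate 1 or control replicate 2 (adjusted p from 0.0544 to 0.0750). SERPINB9 was lost without Syy replicate 2 or 3 or control replicate 1 or 2 (0.0550 to 0.0733), and SERPINB6 without any 1 array but Syy replicate 2 (0.101 to 0.139). SERPINA9 had the largest difference of the 16. It read 4.65, 5.65 and 5.56 in the controls and 7.43, 7.32 and 7.23 with Syy, a rise of 2.04 ± 0.27 (SE, adjusted p = 0.00644, limma). The call was kept without any single array and lost without both Syy replicate 3 and control replicate 2 (adjusted p = 0.0630). SERPINH1, among the 11 not called, read 0.39 ± 0.12 (SE, adjusted p = 0.0691, limma). Its second probe rose by 0.85 and was called (adjusted p = 0.00498, limma over all probes). The groups did not overlap on either probe.

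SERPINA1, the gene of alpha-1 antitrypsin and a product of hepatocytes, read 5.19 on each control and 5.96, 6.72 and 7.67 on the Syy arrays, highest on Syy replicate 3. It was called narrowly (1.59 ± 0.41 SE, adjusted p = 0.0436, limma). The call was lost without Syy replicate 2 or any 1 control (adjusted p from 0.115 to 0.128), and its second probe read -0.35. SERPINF1 and SERPIND1, also liver genes, read 8.61 and 8.31 on Syy replicate 3 and at most 5.29 and 7.11 elsewhere, and were not called. On that array 3 of the 16 serpins lay more than 1 unit above all other arrays, and none did so on any other array. SERPINE2 and SERPINB2 were not among genes of this kind: on Syy replicate 3 they read -0.05 and 0.14 from the control mean.

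**Figure D5:**
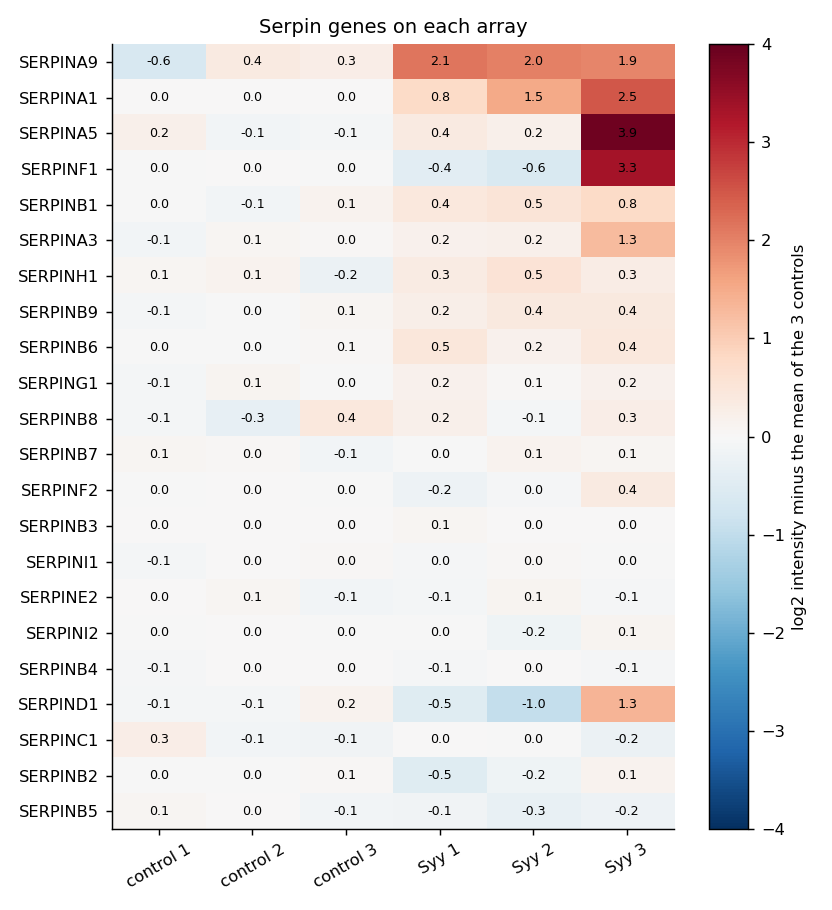
Log2 intensity of 22 serpin genes on each array, as the difference from the mean of the 3 controls, in order of the mean over the Syy arrays. SERPINA9 is high on all 3 Syy arrays, whereas SERPINA5 and SERPINF1 are high on Syy replicate 3 alone.

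Annexin and S100 relatives of ANXA2 and S100A10 gave 1 gene higher, 4 lower and 14 not called of 19 measured (22.4% of all genes called), with a median of 0.05. In the values as deposited the balance was the opposite, with ANXA6, ANXA11 and ANXA4 higher and S100A2 alone lower. Without Syy replicate 3 the list gave 2 higher and 3 lower. ANXA6, a large membrane-organising annexin, read 12.75, 12.83 and 12.65 in the controls and 13.87, 13.21 and 13.63 with Syy, a rise of 0.83 ± 0.17 (SE, adjusted p = 0.0214, limma). That call was lost without Syy replicate 3 or any 1 control (0.0629 to 0.0820). The genes that fell were all S100 genes, calcium-binding proteins that lie in the same gene cluster as S100A10. S100A2 fell by 0.61, S100A11 by 0.48, S100A16 by 0.47 and S100A13 by 0.37 on the log2 scale (adjusted p from 0.0151 to 0.0294, limma). The number of called genes in this list was 1 without control replicate 1, 1 without control replicate 2, 0 without control replicate 3, 3 without Syy replicate 1 and 1 without both Syy replicate 3 and control replicate 2. Of all genes, 12.8%, 12.7% and 13.4% were called without control replicates 1, 2 and 3, 19.4% without Syy replicate 1 and 6.01% without both arrays. The differences of the 4 S100 genes were below 0 under all 15 alternatives, but only that of S100A2 was called in the values as deposited. ANXA5 and ANXA1 read 0.36 and -0.61 without passing (adjusted p = 0.0604 and 0.0898, limma), each with groups that did not overlap. Both were called without Syy replicate 3 (0.44 and -0.85, adjusted p = 0.0431 and 0.0109, limma).

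Several markers of other cells that express these genes were above the level of no signal. Of 8 endothelial markers CLEC4G, CDH5 and TEK had a mean over the 6 arrays above the median of all probes. In the controls CLEC4G averaged 6.78 and CDH5 5.80. TEK read 6.34, 4.42 and 4.72 there, a mean of 5.16 that lay below that median (5.31). None of the 8 was called (22.4% of all genes called), and PECAM1, VWF and KDR read 4.26 to 4.64 in the controls. Of 8 monocyte and macrophage markers PTPRC, which marks all blood leukocytes, read 4.23 in controls and 4.17 with Syy. Of these 8, 4 lay above the median, with CD14 at 10.61, AIF1 at 8.60, CD68 at 8.37 and CSF1R at 5.34 in the controls. LYZ, MARCO and CD163 read 4.15, 4.28 and 4.66 in the controls. CD14 was the only one of the 8 called (22.4% of all genes called), with a rise of 0.72. The summed deposited intensity of the 8 was 1923 to 2226 in controls and 3110 to 3900 with Syy. CD14 was the brightest of the 8 and weighs most in that sum, and AIF1 and CD68 differed by 0.11 and 0.12. The part of CD14-expressing cells in the rise of PLAU and PLAT was not tested. Of 5 cholangiocyte markers 1 was called (22.4% of all genes called), SOX9 with a rise of 0.79 (adjusted p = 0.00298, limma). KRT7, KRT19, EPCAM and CFTR read 9.99, 6.23, 4.46 and 4.30 in the controls.

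The genes most like PLAU over the 6 arrays, among 10912 others above the median, were GRIPAP1, CDC45 and E2F2, each with a Pearson correlation of 0.998. For PLAT they were HDLBP, HEATR2 and GOLGA3 (0.999, 0.999 and 0.998). With 2 groups of 3 arrays such values are common: 500 genes correlated above 0.95 with PLAU and 746 with PLAT.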

How the data were processed

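RNA of 6 LX2 samples was measured on one-channel arrays with Cy5 label, per the labels' protocols. The authors deposited linear intensities for 31741 probes. The sources used here do not give the scanner software, background method or scaling. Values at or below 0 numbered 523 to 845 probes per array. No detection flags were used. Precision is limited by the number of arrays.

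The values were taken as log2(intensity + 16) and quantile normalized, because the arrays differed in distribution (median deposited intensity 18.4 to 27.3). Fold changes are on this scale, which understates changes of dim genes. Of the probes, 24740 had 1 gene symbol in the platform annotation, which can be old, 977 several and 6024 none; the brightest probe stood for each of 18365 genes. Probe sequences were not used, so cross-hybridisation was not checked. The comparison of groups used two-sided moderated tests of limma 3.58.1 under R 4.3.3, without covariates and with Benjamini-Hochberg adjustment at 0.05. These steps were also tested on simulated data.

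The genes and lists were chosen with earlier results of these data known. Named genes were all 7 with every probe, the called genes of 3 lists (up to 8 each, by p), a few genes of the system whatever their values, and the 3 genes most correlated with each called gene; other genes named were chosen after their values were seen. Not every listed gene was analysed here. Alternatives changed the scaling, pseudocount (32, or a floor of 1), filter, probe choice, variance trend, replicate block and arrays used.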

Additional observations from a re-analysis of the deposited data

How the results depend on the processing

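PLAU and PLAT were higher with Syy under all 15 alternatives, called in 13 and 14, and the other 5 genes were called in none. Samples with the same replicate number did not deviate together (correlations of -0.13, -0.08 and -0.04 of their deviations from the group means). Those with different numbers gave -0.06 to 0.15. With 3 arrays a group these values cannot decide whether the numbers pair the samples. With the replicate block 1903 genes and 1 of the 7 were called (PLAU 0.68, adjusted p = 0.0756), and in the lists 2 plasminogen, 3 serpin and 1 annexin and S100 gene. Without both Syy replicate 3 and control replicate 2, with 2 arrays a group, 1103 genes, none of the 7 (PLAU 0.78, PLAT 0.70) and 2, 0 and 1 list genes were called; at an unadjusted p under 0.05 both PLAU and PLAT passed there. Leaving out 1 array gave 2328 to 3752 calls over all genes, 2 of the 7 each time, and 2 to 4, 1 to 5 and 0 to 5 in the lists. The floor of 1 gave 2 plasminogen genes, and the filter at the median 8 annexin and S100 genes.

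Signs that turned belonged to differences that were not called, apart from PLGRKT (0.0576 as deposited). As deposited, SERPINE2 read 0.246, PLAUR 0.0205, ENO1 -0.00158 and SERPINI1 0.311. After median centring SERPINE2 read 0.117, PLG -0.0830, SERPINF2 -0.0301, ENO1 -0.131 and SERPINI1 0.182. Without both arrays SERPINE2 read 0.0610, ANXA2 -0.0686, SERPINF2 -0.101 and SERPINI1 0.0199. With the mean over probes PLG read -0.00888 and SERPINI1 -0.415, the latter called (adjusted p = 0.0347). Leaving out 1 array gave -0.0672 to 0.0388 for SERPINE2, -0.0219 to 0.0425 for PLG, -0.113 to 0.168 for SERPINF2 and -0.0403 to 0.0149 for SERPINI1. It gave 0.573 to 0.739 for PLAU, 0.577 to 0.705 for PLAT and 0.0255 to 0.293 for ANXA2. PLG and SERPINF2 have no value under the filter. The causes were not tested. Dim probes such as that of PLG sit near the level of no signal, where a change would hardly show.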

Other observations

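Some S100 relatives of S100A10 varied widely between arrays of 1 group. S100A4, a marker of motile and mesenchymal cells, read 11.37, 12.91 and 10.16 in the controls and 9.47, 10.51 and 9.94 with Syy (-1.50 ± 0.71 SE, adjusted p = 0.198, limma). S100P read 9.24 on control replicate 2 and 5.65 to 7.55 on the other arrays, and S100A14 read 9.30 on Syy replicate 3 and 5.45 to 6.22 elsewhere. All of them were picked with their values known. By contrast S100A6, one of the brightest genes of the array, read 15.62 to 15.89 on all 6 arrays.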
